A study of Homo sapiens with 6 samples.

Results

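The genes of cytosolic translation initiation, elongation and termination were followed in SY5Y cells, a human neuroblastoma line, with DLX5 overexpression and in control cells of the same line. The members were the protein-coding genes whose symbols name an eIF1 to eIF6 or eEF1 to eEF2 factor, ETF1, GSPT1 or GSPT2, or the poly(A)-binding proteins PABPC1 or PABPC4, without the EIF2AK kinases. This rule found 70 of the 58735 genes in the count table, and its name pattern also took in 4E-binding proteins and the enzymes that modify elongation factors. Each group had 3 RNA-seq libraries. The first group overexpressed DLX5, a homeobox transcription factor, and the second is labelled control. The labels give neither the construct nor how many clones each group comes from.

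Translation starts when the small ribosomal subunit, carrying eIF1, eIF1A, eIF3, eIF5 and the eIF2 complex with GTP and initiator tRNA, is brought to the capped end of a message by eIF4F, made of the cap-binding protein eIF4E, the scaffold eIF4G and the helicase eIF4A. eIF2B recharges eIF2 with GTP, the 4E-binding proteins hold eIF4E away from eIF4G, and poly(A)-binding protein links the tail of the message to eIF4G. eEF1A then delivers aminoacyl-tRNA, eEF2 moves the ribosome along, eIF5A helps at stalling sequences, and eRF1 with eRF3 ends the chain. Several of these genes are known MYC targets, and neural tissue uses the eEF1A2 form of eEF1A.

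DLX5 itself had 1582, 1569 and 1677 CPM in the DLX5 libraries, against 12.4, 12.3 and 13.8 CPM in the controls, so every library matched its label. CPM here are gene counts scaled to a common library total with TMM factors. MYCN was at 26.9, 26.2 and 26.7 CPM in the DLX5 libraries and 5.36, 4.92 and 4.39 CPM in controls, and MYC at 68.5, 67.9 and 69 CPM in DLX5 libraries and 98.9, 91.2 and 86.9 CPM in controls. Total counts per library ran from 14644077 to 16886026. All 8 markers of adrenergic neuroblastoma were detected in control and all 8 were lower with DLX5, their summed level being 1552 to 1680.2 CPM in DLX5 libraries and 3904.5 to 4334 CPM in controls. One of them, TH, had 1, 1 and 0 counts in DLX5 libraries and 26, 24 and 30 counts in controls. Of 9 fibroblast markers all 9 were higher (summed 6810.9 to 7076.7 CPM against 1513.1 to 1567.1 CPM, most of it COL3A1 and COL1A1). Among them PDGFRB and THY1 rose by only 0.29 and 0.46 on the log2 scale, and the DCN groups overlapped. Of 7 epithelial markers 5 were higher and KRT19 was lower (summed 363 to 385 CPM against 20.4 to 24.1 CPM, most of it KRT18). Of 6 Schwann or glial markers 3 were higher and 1 lower (15.2 to 15.3 CPM against 4.93 to 6.95 CPM). Endothelial and blood markers summed to 2.65 to 3.85 CPM with DLX5 and 1.26 to 2.07 CPM in control, with 1 of 6 called higher, and CDH5 and PTPRC were at or near 0 in every library. All 16 genes of an S phase list were lower (1474.9 to 1532 CPM against 2983.1 to 3015.9 CPM). The part of these shifts in the results that follow was not tested. In bulk RNA, a change in the number of cells of one kind and a change in RNA per cell cannot be told apart.

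With DLX5, the translation factors moved downwards more often than upwards, by small amounts. Of the 66 members that passed the filter on low counts, 31 fell, 11 rose and 24 did not pass the test (edgeR quasi-likelihood test, Benjamini-Hochberg adjusted p under 0.05 over all 17269 genes tested). That is 47.0% lower and 16.7% higher. Among all genes tested 28.8% were called lower and 29.8% higher, and among protein-coding genes with a mean of at least 10 CPM, 35.8% were lower and 32.0% higher. The share called in either direction, 63.6% of the members, was near the background of 58.6% of all genes tested, 63.9% of the protein-coding ones and 67.8% of those with at least 10 CPM. Their median log2 fold change was -0.11, beside -0.00 over all genes tested. Of the 42 members called, 39 had groups that did not overlap. Counting uncalled members too, 42 of 66 had groups that did not overlap (63.6%), beside 62.5% of all genes tested, 67.2% of protein-coding genes and 70.5% of those with at least 10 CPM.

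The changes were mostly under 1.5-fold. Only 11 members passed that size as well as the test, 2 of them higher and 9 lower, which is 16.7% of the members tested and 28.97% of all genes tested. The median size of the log2 change, whatever its sign, was 0.30 over the members, 0.36 over all genes and 0.30 over protein-coding genes with at least 10 CPM. EIF3CL was the only member called at more than 2-fold, and that change rested on 1 library, as described with the EIF3 subunits. EIF1AY, EIF4E1B, EIF4EBP3 and EEF1G had too few counts to be tested.

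**Figure D1:**
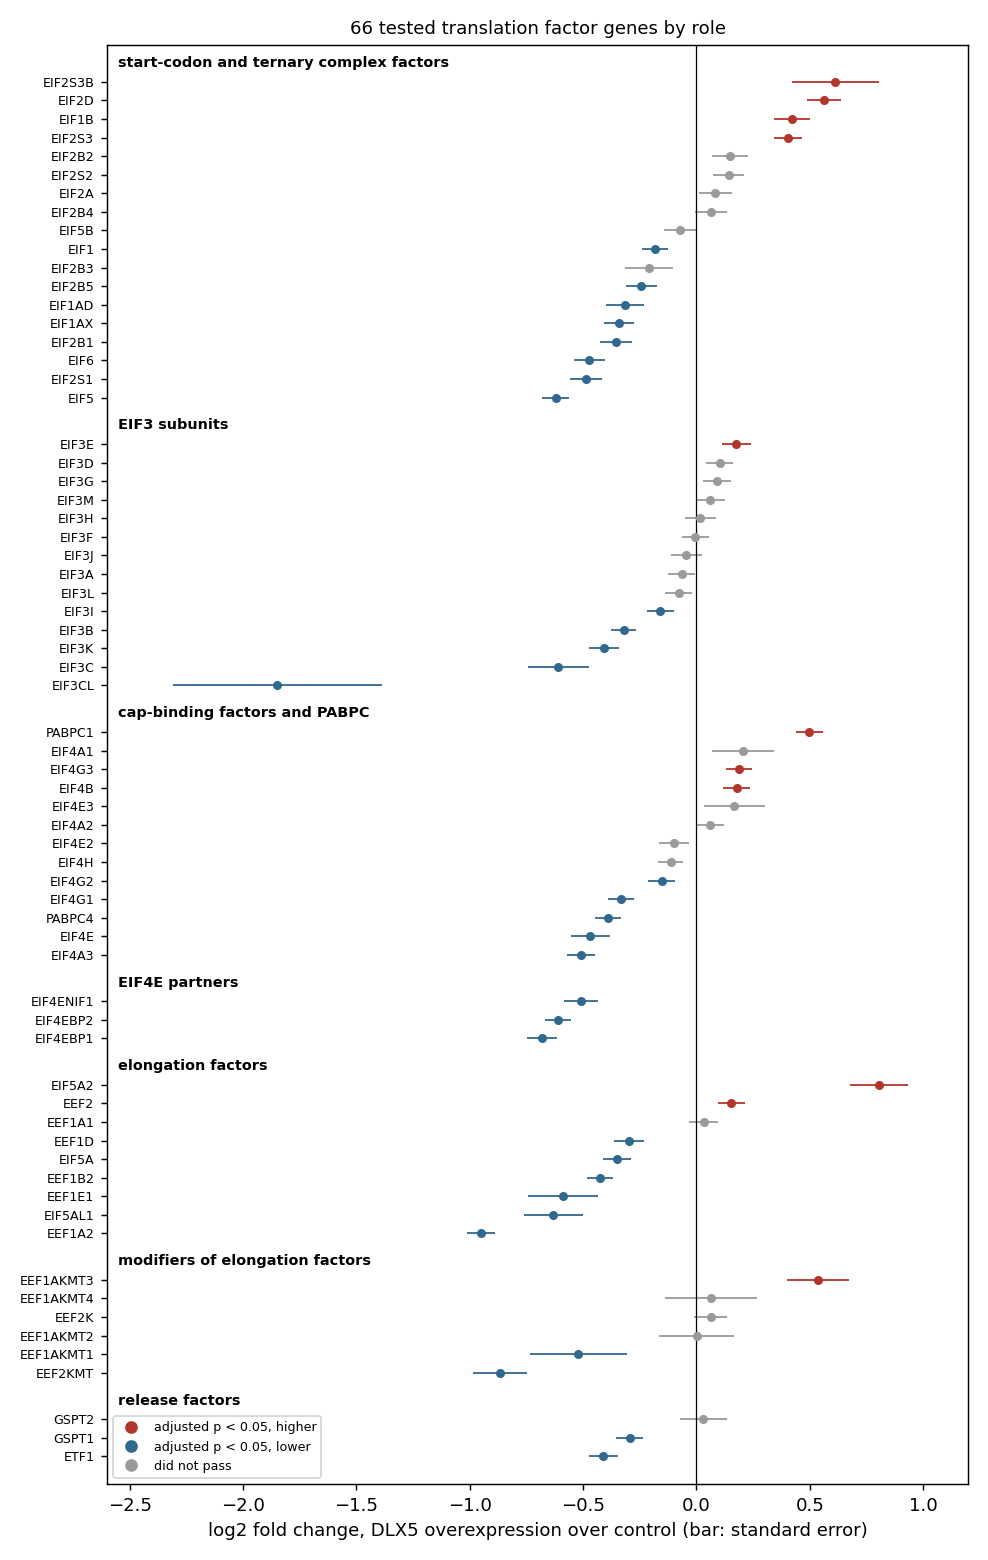
Log2 fold change (DLX5 overexpression over control) of the 66 tested translation factor genes, grouped by role; points are edgeR estimates from 3 libraries a group and bars are standard errors. Red and blue points passed at an adjusted p under 0.05, 11 of them higher and 31 lower, and grey points did not pass.

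EEF1A1, EEF2 and PABPC1 held most of the reads of the family, and the summed level of the factors depended on them and on the scale. All 70 genes together took 2.17%, 2.28% and 2.20% of all counts in the DLX5 libraries, against 2.36%, 2.40% and 2.33% in controls, lower with no overlap (2.22% ± 0.0568 with DLX5 and 2.36% ± 0.0354 in control, SD, n = 3). On the TMM scale the same sum ran from 22041 to 23663 CPM with DLX5 and from 22667 to 23520 CPM in control, and the groups overlapped. The 3 abundant genes took 1.28%, 1.36% and 1.31% of all counts in the DLX5 libraries and 1.28%, 1.30% and 1.26% in controls, with overlap. On the TMM scale they summed to 13035, 14160 and 13426 CPM in DLX5 libraries, against 12567, 12774 and 12273 CPM in controls, higher with no overlap. The other 67 genes were lower on both scales. They took 0.887%, 0.916% and 0.889% of counts in the DLX5 libraries, against 1.08%, 1.10% and 1.07% in controls, and 9006 to 9503 CPM with DLX5 against 10394 to 10746 CPM in control, with no overlap on either scale. An exact permutation test over 3 libraries against 3 cannot give a two-sided p under 0.1.

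Per kilobase of gene length, EEF1A1 stood highest in the family. It had 1341 ± 75.3 CPM per kilobase with DLX5 and 1310.3 ± 60.4 in control (SD, n = 3). EEF2 followed at 1049 ± 23.5 with DLX5 and 942 ± 46.9 in control, and PABPC1 at 282 ± 10.5 with DLX5 and 199.6 ± 4.29 in control. These spreads do not overlap between neighbours in that order. Below them EIF5A (138 ± 8.12 with DLX5, 176 ± 10.1 in control), EIF3I (152 ± 4.77 with DLX5, 169 ± 8.34 in control) and EIF4H (154 ± 4.49 with DLX5, 167 ± 1.90 in control) were close to each other, and their order differed between the groups. EEF1B2 was close to these genes in control (163 ± 7.62) and below them with DLX5 (121 ± 2.55).

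Among the factors that prepare the small subunit and choose the start codon, 8 of 18 tested members were called lower, 4 were called higher and 6 missed the threshold. Their median log2 fold change was -0.13. Over all genes tested, 28.8% were called lower and 29.8% higher. The shares were 35.8% and 32.0% among protein-coding genes with at least 10 CPM. EIF5, the GTPase activator that triggers hydrolysis on eIF2 at the start codon, changed most clearly in this group. It had 172, 179 and 165 CPM in the DLX5 libraries, against 254, 275 and 265 CPM in controls. Every DLX5 library lay below every control, and the log2 fold change was -0.62 ± 0.06 (± SE; edgeR, adjusted p = 1.03e-09). EIF6, which keeps the large subunit from joining too early, fell by 0.47 ± 0.07 on the log2 scale, with 54.5, 61.5 and 62.2 CPM in DLX5 libraries and 81.5, 86.9 and 78.6 CPM in controls.

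The 3 subunits of eIF2 moved in different directions. The alpha subunit EIF2S1 (ENSG00000134001, chromosome 14, 67359997 to 67386516, plus strand, GRCh38) carries the serine that stress kinases phosphorylate. It was at 82.3, 87 and 75.4 CPM in DLX5 libraries and 106, 127 and 110.5 CPM in controls, a log2 fold change of -0.49 ± 0.07 (edgeR, adjusted p = 1.75e-06). The gamma subunit EIF2S3 (ENSG00000130741, chromosome X, 24054716 to 24077971, plus strand), which binds GTP and the initiator tRNA, was at 267, 297 and 264 CPM in DLX5 libraries and 202, 212 and 212 CPM in controls, a log2 fold change of 0.40 ± 0.06 (edgeR, adjusted p = 2.50e-06). Neither gene's groups overlapped, and the directions were opposite. The beta subunit EIF2S2 did not pass, at a log2 fold change of 0.14 ± 0.07 with overlapping groups. EIF2S3B, a close autosomal copy of EIF2S3, was also higher (3.91, 5.49 and 5.72 CPM in DLX5 libraries, 3.22, 3.12 and 3.53 CPM in controls), though reads of the copies may have been shared. EIF2S1 overlaps ATP6V1D, which holds 36.4% as many counts.

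Of the 5 subunits of eIF2B, the exchange factor that recharges eIF2, the alpha subunit EIF2B1 and the catalytic epsilon subunit EIF2B5 fell, by 0.36 ± 0.07 and 0.24 ± 0.07 on the log2 scale. EIF2B1 overlaps GTF2H3, which holds 54.2% as many counts. EIF2B2, EIF2B3 and EIF2B4 did not pass, with log2 fold changes of 0.15 ± 0.08, -0.21 ± 0.11 and 0.06 ± 0.07. Delivery factors outside eIF2 differed again. EIF2D, which can place tRNA on the ribosome without GTP, was at 50.1, 51.4 and 52.3 CPM in DLX5 libraries and 36.4, 35.1 and 32.6 CPM in controls, a rise of 0.56 ± 0.07 on the log2 scale (edgeR, adjusted p = 2.95e-07). EIF2A, which has also been linked to tRNA delivery and is not an eIF2 subunit, did not pass (0.08 ± 0.07). EIF5B, the GTPase of subunit joining, did not pass either (-0.07 ± 0.07).

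The start-codon fidelity factor EIF1 and its paralog EIF1B differed in direction. EIF1 fell, with 298, 293 and 311 CPM in DLX5 libraries and 337, 356 and 331 CPM in controls (log2 fold change -0.18 ± 0.06). EIF1B rose, with 43, 46.4 and 48.5 CPM in DLX5 libraries and 36, 36 and 30.9 CPM in controls (0.42 ± 0.08). In each gene the 3 values of one group lay clear of the other's. EIF1AX, which works beside EIF1 in scanning, fell by 0.34 ± 0.07 on the log2 scale, and its pseudogene reads amount to 8.43% of its own. EIF1AD, a gene named for its eIF1A-like domain, fell by 0.31 ± 0.08 and overlaps BANF1, which holds more counts.

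**Figure D2:**
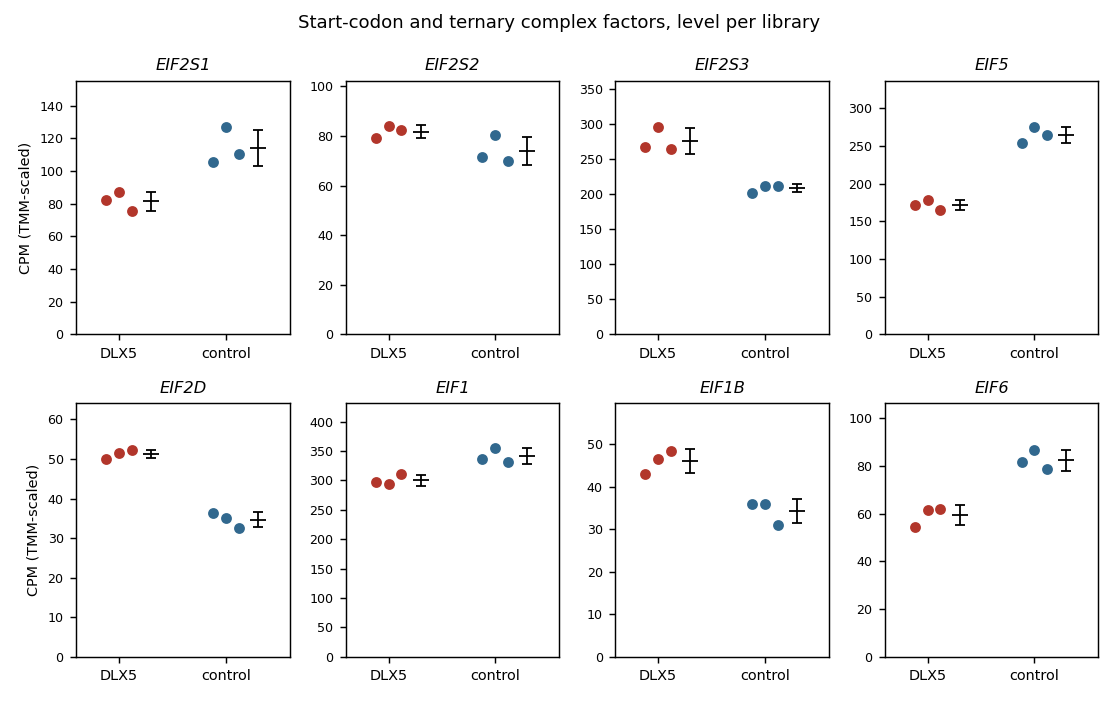
TMM-scaled CPM of 8 start-codon and ternary complex factors in each library; coloured points are the 3 DLX5 overexpression and 3 control libraries, and the black mark is the mean ± SD. EIF2S1, EIF5, EIF1 and EIF6 lie lower and EIF2S3, EIF2D and EIF1B higher with DLX5, with no overlap between groups, while the groups of EIF2S2 overlap.

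Most EIF3 genes changed little. eIF3 is the large scaffold that keeps the small subunit open for initiation, and of its 14 genes 5 fell, 1 rose and 8 did not pass (median log2 fold change -0.06). The background was 28.8% lower and 29.8% higher over all genes tested, and 35.8% and 32.0% among protein-coding genes with at least 10 CPM. EIF3B, a core subunit, was at 289.5, 293 and 295 CPM in DLX5 libraries and 379.6, 363 and 354 CPM in controls, a log2 fold change of -0.32 ± 0.06 (edgeR, adjusted p = 2.50e-05). EIF3K, a peripheral subunit, was at 96, 99.8 and 105 CPM in DLX5 libraries and 141, 137 and 121 CPM in controls (-0.41 ± 0.07). Both genes separated the groups. EIF3B overlaps SNX8, which holds 14.7% as many counts, but shares no exonic base with it. EIF3I fell by 0.16 ± 0.06, but did not pass without DLX5 overexpression replicate 1 (adjusted p = 0.148) or control replicate 1 (adjusted p = 0.0717). EIF3A, EIF3D, EIF3F, EIF3G, EIF3H, EIF3J, EIF3L and EIF3M did not pass, with log2 fold changes between -0.08 for EIF3L and 0.10 for EIF3D. The one rise, of EIF3E by 0.18 ± 0.06, came with overlapping groups (211, 239 and 224 CPM in DLX5 libraries, 191, 216 and 191 CPM in controls). It did not pass without DLX5 overexpression replicate 2 or 3 (adjusted p = 0.107 and 0.05005), without control replicate 1 or 3 (0.0827 and 0.102), on FPKM values, or under 2 of the other scalings.

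EIF3C and EIF3CL are near-identical copies on chromosome 16, and their values are uncertain. EIF3CL had 9.81, 8.07 and 7.12 CPM in DLX5 libraries and 9.98, 8.51 and 71.1 CPM in controls. The high value of control replicate 3 stood alone, and without that library the log2 fold change was -0.15 (adjusted p = 0.451) in place of -1.85. EIF3C had 35.9, 24.5 and 21.7 CPM in DLX5 libraries and 38.5, 51.6 and 35.1 CPM in controls, so the groups overlapped, although the test called it lower (-0.61 ± 0.13). It did not pass with DESeq2 (adjusted p = 0.0590). Summed, the pair held 28.9 to 45.7 CPM with DLX5 and 48.4 to 106 CPM in control.

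At the cap, 5 of 13 tested genes fell, 3 rose and 5 missed the threshold, and 2 components of eIF4F were among those that fell. The background was 28.8% lower and 29.8% higher over all genes tested, and 35.8% and 32.0% among protein-coding genes with at least 10 CPM. EIF4E (ENSG00000151247, chromosome 4, 98871684 to 98930637, minus strand), the cap-binding protein, was at 36.8, 47.7 and 40.1 CPM in DLX5 libraries and 56.8, 61.4 and 53.9 CPM in controls (log2 fold change -0.47 ± 0.08; edgeR, adjusted p = 3.30e-05). Pseudogenes of EIF4E hold 15.7% as many counts. EIF4G1, the main scaffold, was at 503, 519.5 and 492 CPM in DLX5 libraries and 656, 603 and 648 CPM in controls (-0.33 ± 0.06; edgeR, adjusted p = 2.17e-05). Both genes were lower in all 3 DLX5 libraries than in any control. The helicase EIF4A2 did not pass (0.06 ± 0.06). EIF4A1 had only 7.10 to 9.98 CPM in any library, and 51.4% of its exonic bases are its own, most of the others being exonic in AC016876.2 too. Pseudogenes named after EIF4A1 held 129% as many counts as EIF4A1 itself, and its level is uncertain.

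The other scaffolds did not follow EIF4G1. EIF4G3 rose, with 159, 167 and 156 CPM in DLX5 libraries and 141, 139 and 143 CPM in controls (0.19 ± 0.06), and did not pass without scaling factors (adjusted p = 0.0775). EIF4G2, known as DAP5, which lacks the eIF4E-binding part, was called lower at -0.15 ± 0.06, with 706, 753 and 710.4 CPM in DLX5 libraries and 759, 843 and 811 CPM in controls. That call was lost without DLX5 overexpression replicate 1 or 3 (adjusted p = 0.141 and 0.122) and without control replicate 2 or 3 (0.0838 and 0.0536). EIF4G2 overlaps CTR9, which holds 11.6% as many counts. EIF4B, which stimulates the helicase, was called higher (506, 552 and 514 CPM in DLX5 libraries, 456, 489 and 445 CPM in controls; 0.18 ± 0.06). It lost that call without DLX5 overexpression replicate 2 (adjusted p = 0.0647), without control replicate 3 (0.06001) and without scaling factors (0.101). EIF4H, a relative of EIF4B, and the eIF4E homologs EIF4E2 and EIF4E3 did not pass, at -0.11 ± 0.06, -0.10 ± 0.07 and 0.17 ± 0.13.

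EIF4EBP1, EIF4EBP2 and EIF4ENIF1, the tested members that encode partners of eIF4E, fell as EIF4E did. EIF4EBP1, a 4E-binding protein that mTOR phosphorylates to release eIF4E, was at 84.5, 75.4 and 79.1 CPM in DLX5 libraries and 130.3, 133 and 119.6 CPM in controls. Its log2 fold change was -0.68 ± 0.07 (edgeR, adjusted p = 1.04e-09). EIF4EBP2, the form prominent in brain, was at 255, 263 and 243 CPM in DLX5 libraries and 385, 385 and 390.2 CPM in controls (-0.61 ± 0.06; edgeR, adjusted p = 7.82e-10). The ratio of EIF4EBP2 to EIF4EBP1 counts differed by 0.07 on the log2 scale, with overlapping groups (exact permutation test, p = 0.5). EIF4ENIF1, the 4E-T protein that carries eIF4E into the nucleus and to P-bodies, was at 29.8, 28.9 and 30.3 CPM in DLX5 libraries and 42.1, 40.3 and 44.2 CPM in controls (-0.51 ± 0.08). It overlaps DRG1, which holds slightly more counts. The third 4E-binding protein gene, EIF4EBP3, stayed under 0.66 CPM in every library and shares most of its exonic bases with the read-through gene ANKHD1-EIF4EBP3.

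EIF4A3, the helicase relative that serves the exon junction complex rather than the cap, had the largest called fall in the cap group. It was at 87.6, 85.5 and 87.6 CPM in DLX5 libraries and 127, 127 and 117 CPM in controls, a log2 fold change of -0.51 ± 0.06 (edgeR, adjusted p = 7.69e-08). No library of one group reached the other group's range. The 2 cytoplasmic poly(A)-binding proteins crossed. PABPC1 had 1291, 1391 and 1338 CPM in DLX5 libraries and 945, 971 and 931 CPM in controls, a rise of 0.50 ± 0.06 (edgeR, adjusted p = 3.97e-08). PABPC4 had 191, 187 and 192 CPM in DLX5 libraries and 252, 253 and 243 CPM in controls, a log2 fold change of -0.39 ± 0.06 (edgeR, adjusted p = 1.53e-06). Neither gene's groups came close to overlapping, and the PABPC4 to PABPC1 ratio was lower by 0.89 on the log2 scale in the DLX5 libraries.

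**Figure D3:**
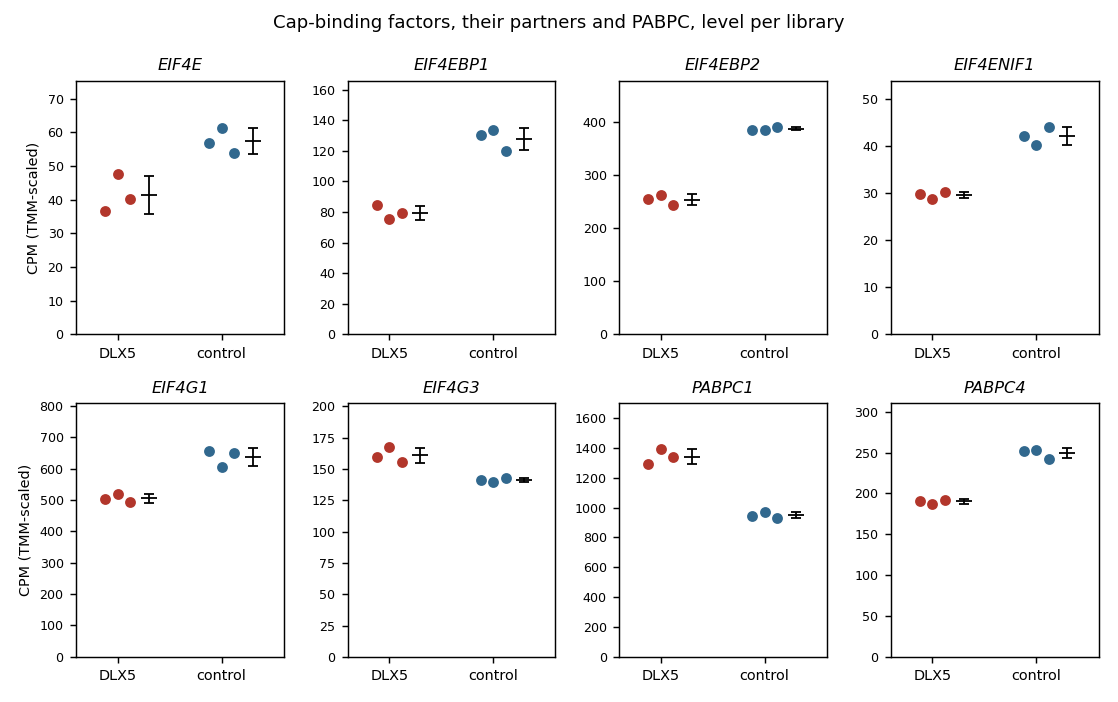
TMM-scaled CPM of EIF4E, its partners, 2 eIF4G scaffolds and the 2 poly(A)-binding proteins in each library; points are libraries and the black mark is the mean ± SD of 3. PABPC1 and EIF4G3 are the genes of this panel that lie higher with DLX5, and no gene's groups overlap.

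Promoter windows of 300 bases (250 before and 50 after the annotated start, RefSeq, GRCh38.p14) were given for 55 of the 70 members. The E-box CACGTG, the letters bound by MYC family proteins, reads the same on both strands. It stood in the windows of 13 of these 55 genes (23.6%), against 12.2% of the 11495 tested genes with a window. Counted by window, it was in 17.6% of the members' 74 windows, 9.0% of those of tested genes and 7.26% of all 35116. By call it was in 3 of 8 members that rose, 4 of 24 that fell and 5 of 19 that did not pass. The ETS letters CCGGAAGT, on either strand, were in 10 of 55 members (18.2%) and 9.09% of tested genes. By window the shares were 14.9% of the members' windows, 6.69% of those of tested genes and 4.14% of all windows. The homeodomain core TAATTA, a letter pattern that DLX proteins bind, reads the same on both strands. It was in 2 of 55 members, EIF4G3 and EIF2B5 (3.64%), and in 3.37% of tested genes. Counted by window, it was in 2.7% of the members' windows, 2.5% of those of tested genes and 4.84% of all windows. A match in the window describes letters, not binding. The E-boxes of the members that changed are shown because MYCN and MYC themselves differed between the groups. Those of the 5 members that did not pass are not shown, and a role of MYCN or MYC was not tested. Each line is 30 bases in the direction of the gene with the E-box in capitals, the first 3 from members that rose and the others from members that fell.
EIF1B: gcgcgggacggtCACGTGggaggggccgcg
EIF4B: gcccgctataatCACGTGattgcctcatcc
EIF5A2: cagggcgctcttCACGTGactgggcggagc
EIF3K: cgaggaagaagtCACGTGgcagccggaaag
EIF4A3: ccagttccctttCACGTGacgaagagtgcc
EIF4E: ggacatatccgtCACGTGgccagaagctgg
EIF4G1: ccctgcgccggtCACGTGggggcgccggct
EIF5A2, EIF4E and EIF4G1 each hold a second E-box in their windows. The one shown for EIF4A3 begins 121 bases before the RefSeq start (chr17:80147232-80147261, minus strand), that of EIF4E 72 bases before it (chr4:98929188-98929217, minus strand) and that of EIF1B 54 bases before it (chr3:40309641-40309670, plus strand).

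EEF1A2 had the largest called change of the family apart from EIF3CL. Of 9 elongation genes tested, 6 fell, 2 rose and 1 did not pass (median log2 fold change -0.35), beside 28.8% lower and 29.8% higher over all genes tested. EEF1A2 (ENSG00000101210, chromosome 20, 63488012 to 63499322, minus strand), the eEF1A form of neurons and muscle, had 304, 314 and 319 CPM in DLX5 libraries and 657, 566 and 587 CPM in controls. Its log2 fold change was -0.95 ± 0.06, a 0.517-fold level (edgeR, adjusted p = 5.55e-13). EEF1A1, the widespread form, had 7628, 8481 and 7818 CPM in DLX5 libraries and 7645, 8204 and 7533 CPM in controls and did not pass (0.03 ± 0.06), the groups overlapping. The log2 ratio of EEF1A2 to EEF1A1 counts was -4.67 ± 0.07 with DLX5 and -3.69 ± 0.16 in control (SD, n = 3; exact permutation p = 0.1, the smallest possible). EEF1A1 was thus the far more abundant form in both groups. Its 39 annotated pseudogenes held 3.07% as many counts.

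The exchange factors that recharge eEF1A fell. EEF1B2, the exchange subunit, had 227, 236 and 235 CPM in DLX5 libraries and 319, 322 and 296 CPM in controls (-0.43 ± 0.06; edgeR, adjusted p = 6.16e-07). EEF1D, a further exchange subunit, fell by 0.30 ± 0.07 on the log2 scale. EEF1E1, an auxiliary protein of the multi-synthetase complex, fell by 0.59 ± 0.15. It averaged 5.28 ± 0.672 CPM with DLX5 and 7.93 ± 0.786 CPM in control (SD, n = 3). NDUFS1 overlaps EEF1B2 and holds 38.5% as many counts. EEF1G, the remaining subunit, had no count in any library. Of its 2716 exonic bases 2714 are also exonic in AP002990.1, and its level is not analysed here.

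EEF2, the translocase, was called higher by a small amount, with 4116, 4287 and 4270.3 CPM in DLX5 libraries and 3977, 3599 and 3809 CPM in controls (0.15 ± 0.06; edgeR, adjusted p = 0.0315). The groups did not overlap, but the call was lost without DLX5 overexpression replicate 2 or 3 (adjusted p = 0.0595 and 0.116), without control replicate 2 (0.116), on FPKM values and under 2 of the other scalings. Genes that modify eEF2 and eEF1A differed among themselves. EEF2KMT, which methylates eEF2, had 10.2, 8.14 and 10.3 CPM in DLX5 libraries and 19.2, 16.3 and 16.9 CPM in controls (-0.87 ± 0.12; edgeR, adjusted p = 6.02e-07). It overlaps ALG1, which holds 99.5% as many counts, on 915 of its 3128 exonic bases. EEF2K, the kinase that inhibits eEF2, did not pass (0.06 ± 0.07).

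Of the 4 EEF1AKMT genes, which encode lysine methyltransferases of eEF1A, EEF1AKMT3 rose (10.8, 9.30 and 10 CPM in DLX5 libraries, 6.70, 6.17 and 7.92 CPM in controls; 0.54 ± 0.14), and it overlaps METTL1, which holds more counts. EEF1AKMT1 was called lower at 2.48 ± 0.369 CPM with DLX5 and 3.57 ± 0.371 CPM in control (SD, n = 3). Its log2 fold change was -0.52 ± 0.21. That call was lost without DLX5 overexpression replicate 2 or 3 (adjusted p = 0.144 and 0.0618), without control replicate 2 or 3 (0.128 and 0.0735), with DESeq2 (0.0897) and with no filter on low counts (0.0605). EEF1AKMT2 and EEF1AKMT4 did not pass, with log2 fold changes of 0.00 ± 0.17 and 0.06 ± 0.20.

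The 2 forms of eIF5A, the hypusine-bearing factor that frees ribosomes at proline stretches, moved in opposite directions. EIF5A (ENSG00000132507, chromosome 17, 7306999 to 7312463, plus strand) had 363, 399 and 405 CPM in DLX5 libraries and 529, 484 and 476 CPM in controls, a log2 fold change of -0.35 ± 0.06 (edgeR, adjusted p = 2.28e-05). EIF5A2 (ENSG00000163577, chromosome 3, 170888415 to 170908693, minus strand) had 12.5, 12.7 and 12.1 CPM in DLX5 libraries and 7.17, 7.85 and 6.33 CPM in controls, a rise of 0.81 ± 0.13 (edgeR, adjusted p = 5.19e-06). The groups of neither gene overlapped, and EIF5A2 had the largest rise of all members. The log2 ratio of EIF5A2 to EIF5A counts was -4.96 ± 0.10 with DLX5 and -6.13 ± 0.16 in control. EIF5AL1, a close copy of EIF5A, fell with it (8.60, 9.88 and 10 CPM in DLX5 libraries, 11.7, 16.4 and 16 CPM in controls), and reads of EIF5A may have been counted there. Per kilobase, EIF5A2 stayed far below EIF5A in both groups, at 2.23 ± 0.0550 CPM with DLX5 and 1.27 ± 0.136 CPM in control. The 250 bases before the RefSeq start of EIF5A2 (chr3:170908638-170908887, minus strand, GRCh38.p14) are shown for this largest rise, with the E-boxes and the ETS letters in capitals.
EIF5A2: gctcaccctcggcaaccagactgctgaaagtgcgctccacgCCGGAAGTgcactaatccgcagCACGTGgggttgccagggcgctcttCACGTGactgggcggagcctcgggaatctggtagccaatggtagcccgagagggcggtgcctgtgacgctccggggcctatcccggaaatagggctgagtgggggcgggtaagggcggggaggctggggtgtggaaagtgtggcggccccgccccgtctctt

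**Figure D4:**
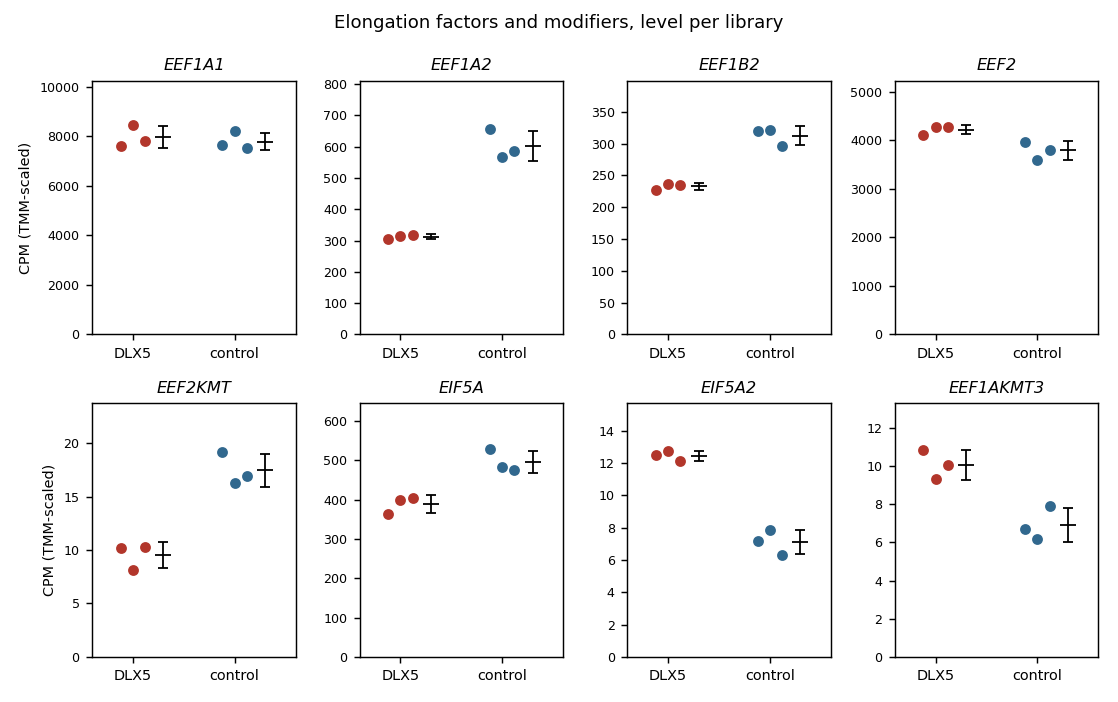
TMM-scaled CPM of elongation factors and modifying enzymes in each library; points are libraries and the black mark is the mean ± SD of 3. EEF1A2, EEF1B2, EEF2KMT and EIF5A lie lower and EEF2, EIF5A2 and EEF1AKMT3 higher with DLX5, and the EEF1A1 groups overlap.

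Termination genes fell in part. ETF1, which encodes eRF1 and reads the stop codons, had 145, 156 and 137 CPM in DLX5 libraries and 180.2, 206 and 195 CPM in controls (-0.41 ± 0.06; edgeR, adjusted p = 5.06e-06). GSPT1, the GTPase eRF3a that works with it, had 195, 195 and 177 CPM in DLX5 libraries and 232, 238 and 225 CPM in controls (-0.29 ± 0.06). In both genes every DLX5 library lay below the lowest control. GSPT2, the eRF3b form, did not pass (0.03 ± 0.11).

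Related genes were compared as ratios within a library, which do not depend on the scaling between libraries. Of the 11 ratios chosen, 10 set paralogs against each other, and EIF2B4 to EIF2B5 set different subunits of eIF2B against each other. Among single genes, groups did not overlap in 62.5% of all tested and 70.5% of protein-coding ones with at least 10 CPM. That share was not taken over ratios of other gene pairs. Among the ratios, groups did not overlap in 7 of the 10 paralog pairs nor in the eIF2B pair. Each of those 8 gave the smallest exact permutation p that 3 libraries against 3 allow, 0.1 (two-sided; 0.1375 after Benjamini-Hochberg adjustment over the 11). EIF5A2 to EIF5A had the largest difference, 1.16 on the log2 scale (DLX5 minus control). EEF1A2 to EEF1A1 differed by -0.98 and PABPC4 to PABPC1 by -0.89. EIF4E3 to EIF4E, EIF4G3 to EIF4G1 and EIF4E2 to EIF4E differed by 0.64, 0.52 and 0.37. GPR27 overlaps EIF4E3 and holds 110% as many counts, and TIGD1 overlaps EIF4E2 and holds 12.8% as many. Ratios that share EIF4E or EIF4G1 are not independent of each other. EIF2B4 to EIF2B5 differed by 0.31 and EIF4G2 to EIF4G1 by 0.18. In that last ratio the groups almost touched, at 0.490 in DLX5 overexpression replicate 1 and 0.482 in control replicate 2. The ratios of EIF4A2 to EIF4A1, EIF4EBP2 to EIF4EBP1 and GSPT2 to GSPT1 had overlapping groups. Adding the counts of annotated pseudogenes changed none of the 11 differences by more than the spread between libraries.

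**Figure D5:**
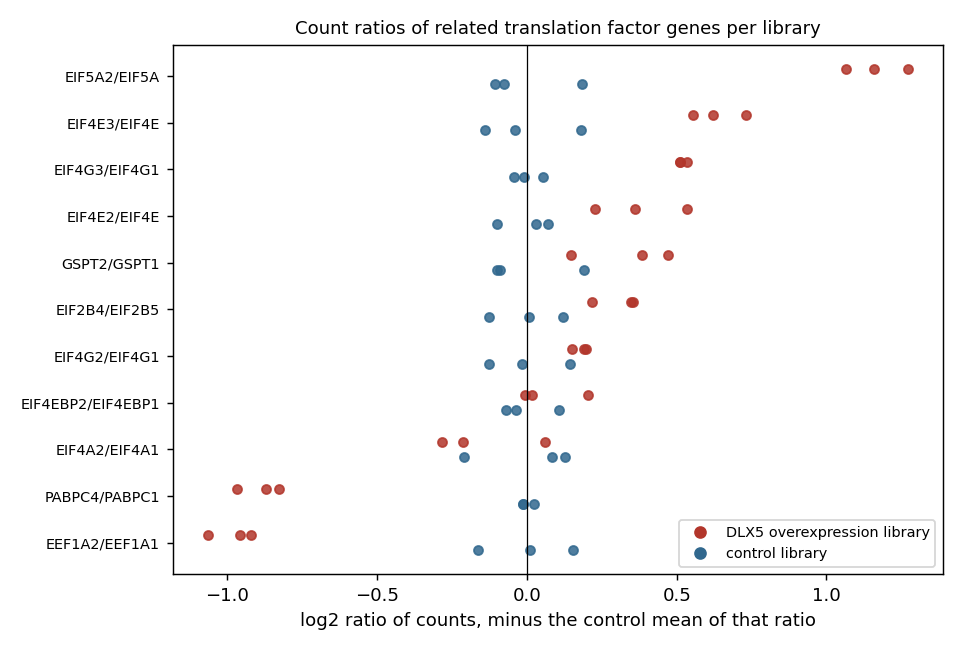
Log2 ratio of the counts of 2 related genes in each library, shown after subtracting that ratio's control mean; each point is a library, DLX5 overexpression above control in each row. EIF5A2/EIF5A lies highest and EEF1A2/EEF1A1 lowest with DLX5, with mean differences of 1.16 and -0.98.

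Genes around the factors moved both ways. In the integrated stress response, in which 4 kinases phosphorylate eIF2 and ATF4 is translated, 5 of 15 genes rose and 3 fell, beside 29.8% higher and 28.8% lower over all genes tested. The 3 falls became 1 without DLX5 overexpression replicate 3 and 5 without scaling factors. EIF2AK4, the amino acid sensing kinase GCN2, rose by 0.66 ± 0.06, its antagonist IMPACT by 0.45 ± 0.08 and PPP1R15A, the GADD34 subunit of the eIF2 phosphatase, by 0.32 ± 0.08. ATF4, ATF5 and the kinase EIF2AK3 (PERK) were lower, at log2 fold changes of -0.34 ± 0.07, -0.38 ± 0.13 and -0.22 ± 0.09. Of 20 genes of mTOR and MNK signalling 5 rose and 8 fell. RICTOR, of mTOR complex 2, rose by 0.85 ± 0.09, the eIF4E kinase MKNK1 by 0.49 ± 0.10 and the Rag GTPase RRAGA by 0.34 ± 0.07. RRAGD, the mTOR inhibitor DDIT4 and RPTOR, of mTOR complex 1, had log2 fold changes of -1.28 ± 0.11, -0.87 ± 0.12 and -0.30 ± 0.07.

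Of 26 other cytosolic helpers 5 rose and 9 fell, beside 29.8% higher and 28.8% lower over all genes tested. The shares were 32.0% and 35.8% among protein-coding genes with at least 10 CPM. The 5 rises became 2 without control replicate 3 or without scaling factors, and 3 without DLX5 overexpression replicate 1, DLX5 overexpression replicate 2 or control replicate 1, or with upper-quartile factors. The genes that build diphthamide, the modified histidine of eEF2, differed: DPH1 rose by 0.59 ± 0.10 and DPH5 by 0.26 ± 0.09, while DPH2 fell by 0.66 ± 0.07. PAIP2B, an inhibitor of poly(A)-binding protein, rose by 0.50 ± 0.13. ABCF1 and the selenocysteine elongation factor EEFSEC fell by 0.37 ± 0.06 and 0.49 ± 0.08. Of 12 mitochondrial translation factors 2 rose and 6 fell (median log2 fold change -0.22), beside 29.8% higher and 28.8% lower over all genes tested. The elongation factors GFM1 and TUFM fell by 0.39 ± 0.07 and 0.23 ± 0.06 and GUF1 fell by 0.34 ± 0.08, whereas the initiation factors MTIF3 and MTIF2 rose by 0.39 ± 0.13 and 0.21 ± 0.08. Neither rise passed without DLX5 overexpression replicate 3 or without control replicate 3, and the count of rises in this list was 1 without DLX5 overexpression replicate 2, without control replicate 1, with DESeq2, under 2 of the other scalings, with no filter on low counts and on FPKM values with a pseudocount of 1. All of these calls were made over all 17269 genes tested.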

How the data were processed

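Gene counts of 6 libraries, deposited as whole numbers per gene, were used as the authors gave them. The submitters' processing notes name HISAT2 (2.0.5), featureCounts (1.5.0-p3) and the build hg19. However, each of the 58735 genes carries a GENCODE 29 identifier with that release's GRCh38 start and end, so positions are GRCh38. The sources used here do not give whether counting used strand, and reads of genes that overlap on either strand may be mixed. The deposited FPKM values come from the authors and served in alternatives with pseudocounts of 1 and 0.1.

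Genes were kept by filterByExpr (17269 of 33755 with any count), scaled by TMM and compared with edgeR 4.0.16 in R 4.3.3 (quasi-likelihood test, two-sided, no covariate, Benjamini-Hochberg over all genes tested, adjusted p under 0.05). Standard errors are the log2 fold change over the square root of F. The biological coefficient of variation was 6.17%. Chi-square per degree of freedom between replicates was 2.23 to 5.07, above sampling noise, and all libraries were kept. The labels do not state separate cultures, so p-values measure no more than how these libraries scatter, possibly for technical reasons.

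The members, the lists, the 11 gene pairs and the rule for named genes (up to 3 members a role with the largest rise and fall among those called, plus both genes of each pair) were chosen with earlier results of these data known. Other members are named with their values. Exonic overlap and pseudogenes were taken from GENCODE 29.
Alternatives were other scaling factors, DESeq2 1.42.0, limma-voom and limma 3.58.1 on FPKM, other filters and thresholds, each library left out, and the replicate number as a block.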

Additional observations from a re-analysis of the deposited data

How the results depend on the processing

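Against 11 members higher and 31 lower, every fit tried gave between 7 and 12 higher and between 28 and 36 lower, with a median log2 fold change between -0.17 and -0.08. Library totals with no scaling factors moved the values most, to 7 higher, 36 lower and a median of -0.17, beside -0.07 for all genes. Requiring at least 1.5-fold left 2 higher and 9 lower. Leaving out 24 members, 21 that overlap a well-counted gene and the near-identical copies EIF3C, EIF3CL and EIF5AL1, left 10 higher and 19 lower, with fewer genes counted and EIF2S3B still among the higher. Leaving out each library in turn gave 8 to 11 higher, 28 to 30 lower and medians of -0.14 to -0.08. Of the 42 called members, 32 kept call and direction in all 17 refits. The other 10 (EIF1, EIF3C, EIF3CL, EIF3E, EIF3I, EIF4B, EIF4G2, EIF4G3, EEF2 and EEF1AKMT1) lost the call in at least 1. EIF1 did so without DLX5 overexpression replicate 1 (adjusted p = 0.0511). No called member changed sign, and 6 uncalled members passed in at least 1. The replicate block gave 12 higher and 30 lower, and EEF1AKMT1 lost its call there (adjusted p = 0.0506). Same-numbered libraries correlated at 0.03, 0.15 and -0.07 in their deviations, and differently numbered ones at -0.17 to 0.16. With so few libraries, these values cannot show whether the numbers pair them. For the neighbouring lists the same alternatives were chosen after seeing the data. EIF4E1B and EIF4EBP3 were too low to test, at 0 to 3 and 6 to 11 counts per library. Whether depth limited them was not tested.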
